A study of Mus musculus with 19 samples.

Results

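The S100 family is a group of small calcium-binding proteins, and 10 of its genes were followed here across mouse pancreatic duct organoids. The 10 members were the rows of the deposited expression table named S100a4, S100a6, S100a7a, S100a8, S100a9, S100a10, S100a11, S100a13, S100a14 and S100a16, out of 29861 rows. They were taken by name, in a family chosen with earlier results of these data known, so their counts below are a description beside the share of all genes. A further 8 rows carried an S100 name and were not members. All 10 members passed the filter for testing, a level of at least 1 TPM (transcripts per 1000000) in at least 6 lines, as did 12500 rows in all.

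The study measured RNA in 19 organoid lines, cultures of duct epithelium grown as hollow spheres in a basement membrane gel. The 7 normal lines came from ducts of wild-type mice, the 6 PanIN lines from ducts of Pdx1-Cre mice with pancreatic intraepithelial neoplasia (a lesion that precedes carcinoma), and the 6 tumor lines from pancreatic adenocarcinoma of Pdx1-Cre mice that also carried Trp53LSL-R172H, a mutant Trp53 allele switched on by Cre. All donors were labelled C57B6/J, both sexes were present in each group, and ages are not given in the sources used here. All lines grew in the same medium, which held EGF, FGF-10, gastrin, noggin, R-spondin and A83-01, an inhibitor of TGF-beta receptors. In the PanIN and tumor donors Cre was driven by the Pdx1 promoter, which is active in the developing pancreatic epithelium and not in duct cells alone. The normal lines carried no Cre, so Cre and the alleles it activates cannot be told apart. The labels do not say whether any lines share a mouse, and the p-values below therefore rest on the spread among lines, which may share an animal.

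Each line had between 11938 and 12437 rows at 1 TPM or more. Each of 12 duct markers, Krt19, Epcam and Sox9 among them, reached 1 TPM in at least some lines of every group, with Cftr at 1 TPM or more in 7 of 7 normal, 3 of 6 PanIN and 5 of 6 tumor lines. Their levels were not all equal. At a limma adjusted p below 0.05, 0 were higher and 1 lower (Epcam) in PanIN against normal, beside 3.68% of all genes as lower. In tumor against normal 0 were higher and 4 lower (Krt8, Spp1, Onecut1 and Krt18), beside 14.4% of all genes as lower. Of 18 leukocyte marker rows, 14 were below 1 TPM in every line, and Tyrobp, Laptm5, Lyz2, Cd3e, Elane, Retnlg and Emr1 were listed at 0 throughout. Of 13 fibroblast marker rows, 12 were below 1 TPM in every line, and Vim was the other. The leading principal component held 41.9% of the variance. On it tumor line 4 was the lowest tumor line (0.0913), with the others spread from 11.8 to 45.7. PanIN line 6 was the highest PanIN line (30.4), with the others from -15.9 to 12.1. The library identifiers in the column names fall into 3 series, and each series holds lines of every group. What the series stand for was not given in the sources used here.

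S100 proteins carry a pair of EF-hand motifs, the helix-loop-helix folds that bind calcium. Most form dimers, and calcium binding exposes a surface that grips target proteins such as annexins. Some also leave the cell: S100A8 and S100A9 pair as calprotectin, which binds metals and signals through Toll-like receptor 4 and RAGE. S100A10 is an exception that does not bind calcium and pairs with annexin A2 at the membrane. In pancreatic carcinoma several family members are known as markers of the neoplastic epithelium.

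All 10 members lie on mouse chromosome 3, where most S100 genes form a cluster, and in RefSeq's order S100a13, S100a14 and S100a16 stand close together at one end while S100a11 and S100a10 are neighbours at the other. RefSeq promoter windows (build GRCm38.p6, given only for reference since the files use mm9) matched 8 of the 10 members. Windows of 3 members that changed between groups are shown, S100a6 and S100a16 as genes that rose and S100a11 as the gene that fell. Each runs on the plus strand, 5′ to 3′, from 250 to 16 bases before the start, and S100a16 is shown for the first of its 2 starts. Capitals mark matches to AP-1 (TGANTCA) or to the GC box (GGGCGG).
S100a6, chr3:90612644-90612878: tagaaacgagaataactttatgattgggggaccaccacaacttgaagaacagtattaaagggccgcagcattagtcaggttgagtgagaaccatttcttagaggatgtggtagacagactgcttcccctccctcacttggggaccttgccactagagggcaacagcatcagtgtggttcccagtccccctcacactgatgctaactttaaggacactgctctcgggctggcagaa
S100a16, chr3:90537004-90537238: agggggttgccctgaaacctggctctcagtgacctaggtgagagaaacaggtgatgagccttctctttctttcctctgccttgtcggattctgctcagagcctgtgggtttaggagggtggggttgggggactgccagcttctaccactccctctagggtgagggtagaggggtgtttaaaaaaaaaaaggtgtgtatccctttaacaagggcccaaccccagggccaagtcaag
S100a11, chr3:93520246-93520480: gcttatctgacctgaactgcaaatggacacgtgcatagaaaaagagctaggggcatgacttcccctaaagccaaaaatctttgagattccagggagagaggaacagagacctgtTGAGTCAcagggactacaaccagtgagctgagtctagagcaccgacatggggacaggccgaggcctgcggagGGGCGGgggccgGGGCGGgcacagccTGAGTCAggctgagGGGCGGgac
The S100a11 window holds 2 AP-1 matches, at 136 to 130 and 38 to 32 bases before the start. It also holds 3 GC box matches, at 64 to 59, 52 to 47 and 24 to 19 bases before the start. The S100a6 and S100a16 windows shown hold neither, while the window of the other S100a16 start holds both. Both motifs and TATAAA were searched on both strands, and no match of one overlapped another in S100a11. Of 32851 promoter windows of the same length, 6.48% held an AP-1 match, 30.6% a GC box and 11.9% a TATAAA. Of the members' 9 windows, 2 held an AP-1 match (S100a11 and S100a16), 3 a GC box (S100a9, S100a11 and S100a16) and 2 a TATAAA (S100a4 and S100a8), and for S100a4 it lay 31 to 26 bases before the start.

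The members' means over the 19 lines ran from 1.31 TPM for S100a8 to 2197 TPM for S100a6, in a unit that corrects for transcript length and allows levels of different genes to be set side by side. S100a6 (calcyclin) was the highest in every line, with a group mean of 1641 ± 321 TPM (SD, n = 7) in normal, 2790 ± 435 (n = 6) in PanIN and 2253 ± 501 (n = 6) in tumor lines. By mean over all lines it ranked 43 among the 29861 rows. S100a10, the annexin A2 partner, came next at 1035 ± 72.9, 1035 ± 89.1 and 976.6 ± 114 TPM, followed by S100a11, a partner of annexin A1, at 875.6 ± 128, 737 ± 83.9 and 654.8 ± 38.2 TPM. S100a10 exceeded S100a11 in 18 of 19 lines, and their ranges overlapped among the normal lines and lay apart in PanIN and tumor lines. These 3 genes made up 94.4% ± 1.12 (SD, n = 7) of the summed TPM of the members in normal lines, 92.7% ± 0.894 (n = 6) in PanIN and 91.1% ± 2.15 (n = 6) in tumor lines.

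A gap without overlap in any line separated S100a11 from the next gene, S100a14, which averaged 81.3 ± 32 TPM in normal, 166.3 ± 52.2 in PanIN and 209.6 ± 115 in tumor lines. S100a16 followed. S100a14 was above S100a16 in 3 of 7 normal lines and in all 6 PanIN and all 6 tumor lines. S100a13 was lower than S100a16 in 19 of 19 lines. S100a9, S100a4, S100a7a and S100a8 stood lowest and overlapped with one another over all lines. In PanIN and tumor lines S100a8, at most 1.65 and 1.83 TPM, lay below the ranges of S100a9, S100a4 and S100a7a. S100a7a was last by mean in normal lines, below S100a8 in 4 of 7, and stood above S100a8 in all 6 PanIN and all 6 tumor lines.

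**Figure D1:**
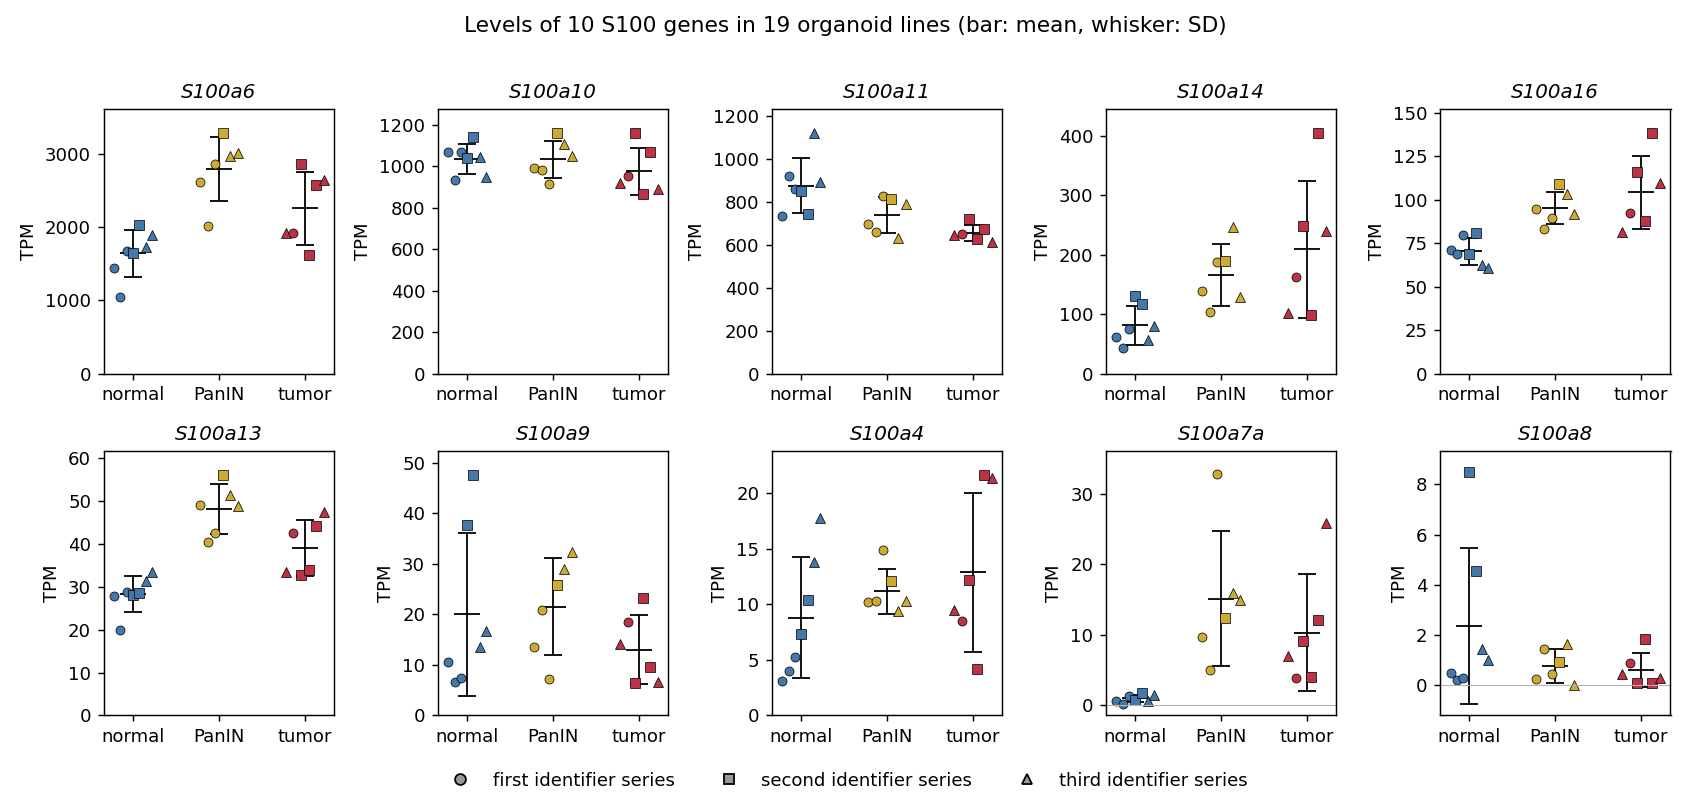
Level in TPM of each S100 gene in each organoid line, by group; points are lines, marker shapes the identifier series, bars the group mean and whiskers the SD. S100a7a in the 6 PanIN and 6 tumor lines lies above all 7 normal lines, and the 3 groups overlap for S100a10.

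The first question the design poses is how PanIN organoids differ from normal duct organoids. Of the 10 members, 5 rose and 0 fell at a limma adjusted p below 0.05: S100a7a, S100a13, S100a6, S100a16 and S100a14. Over all genes tested, 6.78% were called, 3.1% as higher. The ranges of PanIN and normal lines lay apart for 3 members, S100a7a, S100a13 and S100a16, all higher in PanIN, against 3.05% of all genes, or 1.26% as higher. The median log2 change of the members was 0.46, beside -0.029 over all genes tested. The change in log2(TPM + 1) understates the fold change of genes at a few TPM.

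S100a7a (psoriasin-like), a secreted antimicrobial and chemotactic protein of epithelia, was at 0.11 to 1.68 TPM in normal lines (median 0.68). In PanIN lines it was at 4.98 to 32.9 TPM (median 13.6), so that the lowest PanIN line, number 2, was above the highest normal line, number 11. The means had a ratio of 17.1, and the log2 change was 2.96 (SE 0.38, 95% interval 2.16 to 3.75, limma adjusted p = 0.00017). Within the 3 identifier series, the difference in log2(TPM + 1) was 3.05, 2.65 and 3.08, with 1 to 3 lines of a group in each series.

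S100a13, which takes part in the release of FGF1 and interleukin 1 alpha from cells, was at 19.9 to 33.5 TPM in normal lines (median 28.5) and at 40.5 to 56.2 TPM in PanIN lines (median 49). Every PanIN line was above every normal line. The log2 change was 0.75 (SE 0.11, 95% interval 0.51 to 0.99, limma adjusted p = 0.000522), and it was 0.78, 0.97 and 0.61 within the series. Because S100a13 overlaps S100a1 on the opposite strand in RefSeq, their reads cannot be told apart unless strand was used in counting. The library kit marks strand, but the strand setting of the counting step was not given in the sources used here.

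S100a16, an S100 protein with reduced calcium binding in its N-terminal EF hand, was at 61 to 80.8 TPM in normal lines (median 69) and 83.4 to 109 TPM in PanIN lines (median 93.2). The lowest PanIN line was above the highest normal line by a narrow margin. The difference was 0.28, 0.54 and 0.65 within the series. The log2 change was 0.43 (SE 0.11, 95% interval 0.21 to 0.65, limma adjusted p = 0.0189). The call was lost without PanIN line 4 (adjusted p = 0.0500) and without PanIN line 5 (adjusted p = 0.0523). It was also lost with the line number as a replicate block (limma adjusted p = 0.1055).

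S100a6, which binds the ubiquitin ligase adaptor CacyBP and annexins, was at 1047 to 2031 TPM in normal lines (median 1680) and at 2019 to 3279 TPM in PanIN lines (median 2913). PanIN line 2 lay just below the highest normal line, and the other 5 PanIN lines lay above all normal lines. The difference was 0.86, 0.84 and 0.72 within the series. The log2 change was 0.78 (SE 0.16, 95% interval 0.45 to 1.1, limma adjusted p = 0.00455). Its share of the summed TPM of the members averaged 43.2% (SD 4.63) over the normal lines and 56.5% (SD 2.52) over the PanIN lines.

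S100a14, which has few calcium-binding residues in its EF hands, was at 44 to 131 TPM in normal lines (median 75.9) and at 104 to 247 TPM in PanIN lines (median 164). The groups overlapped, with 4 of 6 PanIN lines above all normal lines. Within the series the difference was 1.22, 0.61 and 1.38. The log2 change was 1.06 (SE 0.31, 95% interval 0.41 to 1.71, limma adjusted p = 0.0461). This call did not hold in 16 of 32 alternative settings. It was lost on leaving out normal line 5, 6, 7, 12 or 13, PanIN line 1, 3, 4, 5 or 6, or tumor line 4 or 9, with adjusted p from 0.0522 to 0.127.

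For S100a11 the PanIN and normal ranges overlapped, 633 to 829 against 737 to 1119 TPM (log2 change -0.24, 95% interval -0.43 to -0.057, limma adjusted p = 0.117). S100a10 differed by -0.0019 (95% interval -0.16 to 0.16, adjusted p = 0.995), and its sign turned with median-of-ratios scaling (0.034) but not with the other 2 scalings tried. For S100a4, S100a8 and S100a9 the 95% intervals were wide, -0.24 to 1.22, -1.45 to 0.29 and -0.63 to 1.2.

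**Figure D2:**
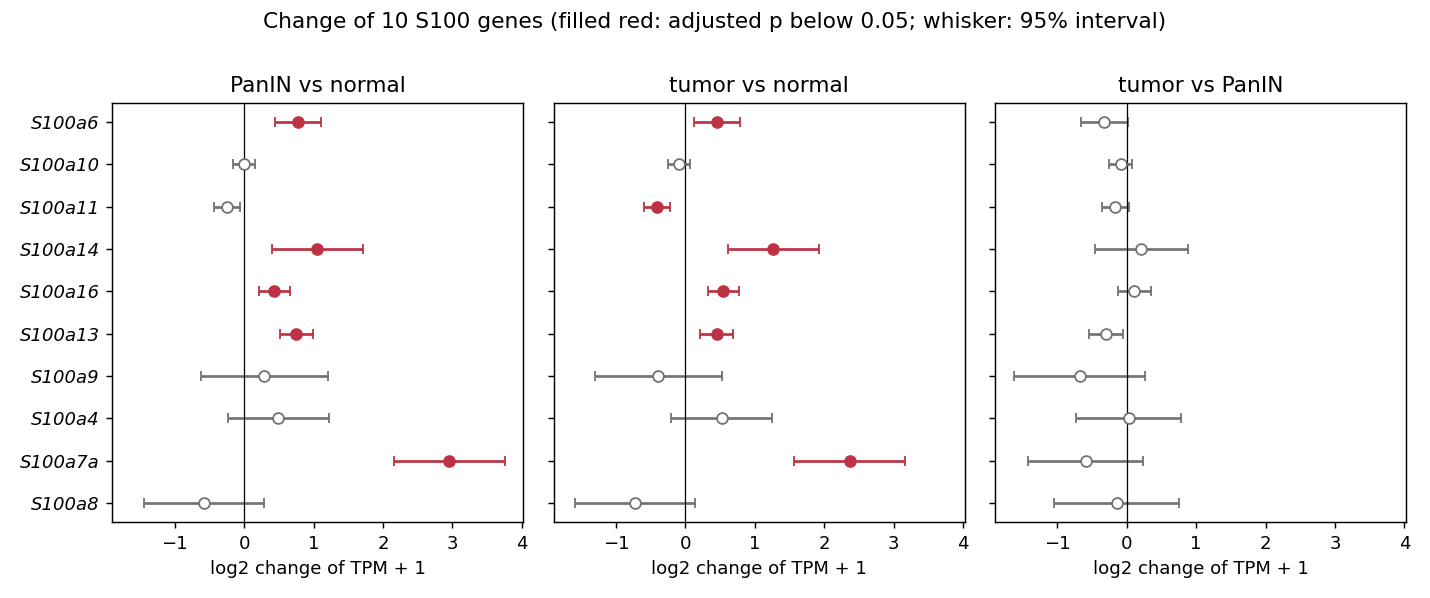
Log2 change of TPM + 1 for each S100 gene in each comparison, with the 95% interval as a whisker; filled red points have a limma adjusted p below 0.05. 5 members are filled in PanIN against normal, 6 in tumor against normal and none in tumor against PanIN.

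Tumor organoids were compared with the same 7 normal lines, so both comparisons share their controls and their likeness is not independent evidence. In tumor lines 5 members rose and 1 fell: S100a7a, S100a16, S100a14, S100a13 and S100a6 were higher and S100a11 was lower. Of all genes tested, 32.2% were called, 17.8% as higher and 14.4% as lower. Tumor and normal ranges lay apart for 3 members, S100a7a, S100a16 and S100a11, beside 7.26% of all genes. The first 2 of these were higher, beside 2.9% of all genes, and S100a11 was lower, beside 4.36%. The members' median log2 change was 0.45 and that of all genes 0.039.

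S100a7a was at 3.81 to 25.9 TPM in tumor lines (median 7.97), all above the highest normal line. The ratio of means was 11.6, and the log2 change was 2.37 (SE 0.38, 95% interval 1.57 to 3.16, limma adjusted p = 0.000458). Tumor lines differed more among themselves than for 99.1% of tested genes, with an SD of 0.94 in log2(TPM + 1). Within the 3 identifier series the difference from normal was 1.62, 2.03 and 2.91.

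S100a16 was at 81.6 to 138 TPM in tumor lines (median 101), each above all normal lines. Its log2 change was 0.54 (SE 0.11, limma adjusted p = 0.00157). S100a14 was at 99.3 to 405 TPM (median 201), with 4 of 6 tumor lines above all normal lines and 2 inside their range. Its log2 change was 1.27 (SE 0.31, limma adjusted p = 0.0059), and the highest tumor line, number 8, was also highest for S100a16. S100a14 in tumor lines had an SD of 0.79 in log2(TPM + 1), above that of 98.4% of tested genes.

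S100a13 was at 32.8 to 47.5 TPM (median 38.3) in tumor lines, and 4 of 6 were above all normal lines. Its log2 change was 0.45 (SE 0.11, limma adjusted p = 0.007). S100a6 was at 1613 to 2862 TPM (median 2244), and 3 of 6 tumor lines were above all normal lines. Its log2 change was 0.45 (SE 0.16, limma adjusted p = 0.0329), and the call was lost in 11 of 32 settings. These were chiefly other scalings, covariates, and leaving out normal line 5 or 6 or tumor line 5, 8 or 9, where the adjusted p was 0.0546 to 0.0878.

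S100a11 was the member that fell. It was at 737 to 1119 TPM in normal lines (median 862) and at 611 to 719 TPM in tumor lines (median 648), with the highest tumor line below the lowest normal line. The tumor level was 1.33-fold lower on the log2(TPM + 1) scale (log2 change -0.41, SE 0.089, 95% interval -0.59 to -0.22, limma adjusted p = 0.00289). The difference was -0.36, -0.24 and -0.67 within the identifier series, and the members that rose were also higher in tumor lines within each series, S100a16 by 0.34 to 0.61, S100a14 by 0.79 to 1.44, S100a13 by 0.29 to 0.74 and S100a6 by 0.31 to 0.49. The mouse genome also holds an S100a11 pseudogene, and the authors' counting could have split reads with it. The tumor lines were tightly grouped for this gene, with an SD of 0.083 in log2(TPM + 1), below that of all but 7.19% of tested genes.

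S100a10 was at 869 to 1160 TPM in tumor and 933 to 1143 TPM in normal lines, and the ranges overlapped (log2 change -0.089, 95% interval -0.25 to 0.068, limma adjusted p = 0.377). Under 2 other scalings it passed the threshold as lower, with adjusted p = 0.0456 when rescaled without rows that the authors did not compare and 0.0188 with quantile normalization. S100a4, known as a marker of fibroblasts and of motile cells, had a 95% interval of -0.21 to 1.25 and an adjusted p of 0.259.

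Tumor and PanIN lines were compared directly as well, and 0 of 10 members passed the threshold with limma, where 1.6% of all genes did, 0.392% as higher and 1.21% as lower. The member with the smallest limma p was S100a13, at 0.0204 before adjustment and 0.106 after. It was lower in tumor lines (log2 change -0.30, 95% interval -0.55 to -0.052). In the authors' deposited table of DESeq2 results, 0 members had an adjusted p below 0.05 in this comparison, with S100a13 at 0.0509 and no adjusted p listed for S100a8, beside 11.7% of all genes, 5.1% as higher and 6.55% as lower. Without PanIN line 6 and tumor line 4, left out after seeing the data, 0 members passed while 3970 genes in all did. No member had ranges that lay apart, beside 1.8% of all genes, 0.832% as higher and 0.968% as lower. For S100a7a the log2 change was -0.59, with a 95% interval of -1.42 to 0.23. For S100a6 it was -0.32, with an interval of -0.66 to 0.015.

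The authors' deposited table called 5 members in PanIN against normal, all higher, where it called 10.5% of all genes with an adjusted p, 5.53% as higher and 4.94% as lower. In tumor against normal the authors' deposited table called 6, 5 higher and 1 lower, beside 32.5% of all genes, 16.2% as higher and 16.4% as lower. For S100a7a the authors' deposited table gives a log2 fold change of 3.68 (SE 0.443, adjusted p = 1.4e-13) for PanIN against normal.

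**Figure D3:**
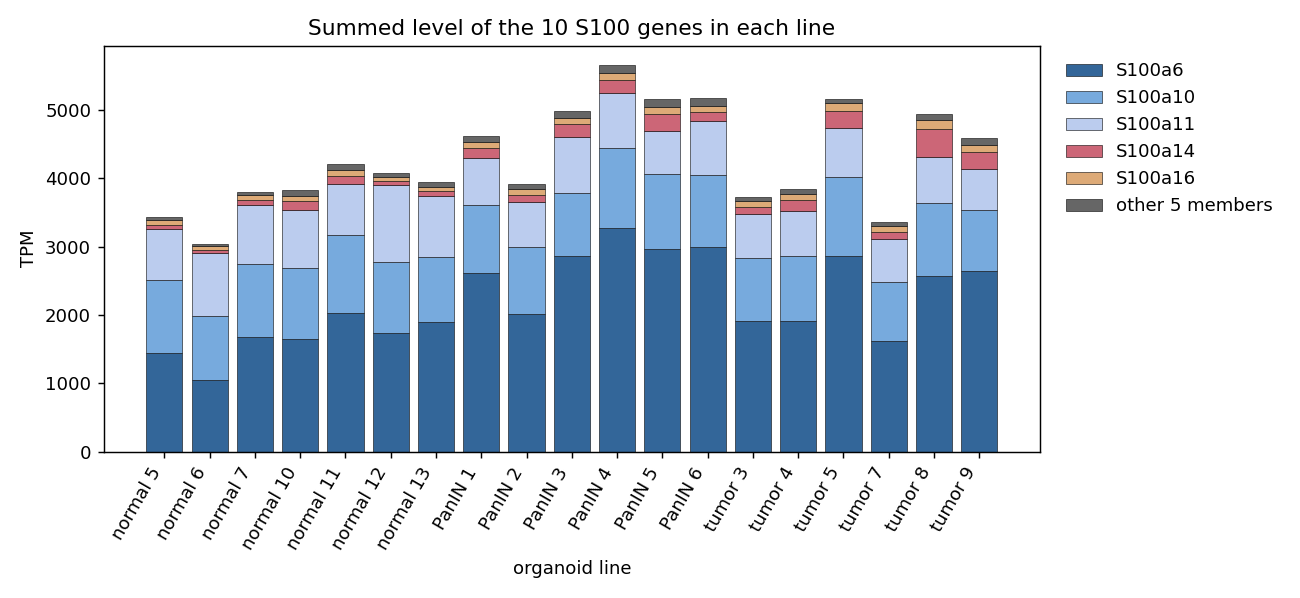
Stacked TPM of the S100 genes in each organoid line, in normal, PanIN and tumor order, with S100a6, S100a10, S100a11, S100a14 and S100a16 by colour and the other 5 members in grey. The summed level averages 3764 TPM in normal lines, 4921 in PanIN lines and 4274 in tumor lines.

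The summed level of the members was 3764 ± 401 TPM (SD, n = 7) in normal, 4921 ± 591 (n = 6) in PanIN and 4274 ± 728 (n = 6) in tumor lines. In bulk RNA, a change in the share of cells that express a gene and a change in the RNA per cell cannot be told apart.

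The members differed in how much the lines of a group varied. In normal lines S100a8, S100a9 and S100a4 had SDs of 1.13, 1.04 and 0.82 in log2(TPM + 1), each above at least 98.9% of tested genes, while S100a10 at 0.10 was above 11.6% and the median gene had 0.19. S100a8 was at 0.22 to 8.49 TPM in normal lines (median 1.02), at 0 to 1.65 in PanIN and at 0.1 to 1.83 in tumor lines. The highest normal line was number 10, at 8.49 TPM, followed by number 11 at 4.56, both of the second identifier series. S100a9 was likewise highest in these lines, at 37.7 and 47.6 TPM, with the other normal lines between 6.58 and 16.7. Neither gene was called in any comparison. Myeloid leukocytes are a textbook source of both, and the leukocyte marker rows summed to 52.5 to 290 TPM in normal, 19.4 to 73.4 in PanIN and 24.9 to 53.4 in tumor lines. Of 18 rows, 14 were below 1 TPM in every line and 7 of these were at 0 throughout. Most of the sum was Ltf, the gene of lactoferrin, with a mean of 142 TPM in normal, 33.6 in PanIN and 27.2 in tumor lines, and its highest normal line was number 6. Csf1r was at 1.25 to 5.57 TPM in normal lines, highest in number 11, and at 0.4 to 1.22 in PanIN and 0.18 to 1.26 in tumor lines, and was called lower in both against normal (limma adjusted p = 0.0179 and 0.00138). Cxcr2 averaged 2.4 TPM in normal lines, where number 10 was highest, 4.17 in PanIN and 7.87 in tumor lines, and was called higher in tumor against normal (limma adjusted p = 0.00164). The part of leukocyte RNA in the levels of S100a8 and S100a9 was not tested.

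S100a4 was at 3.12 to 5.29 TPM in the normal lines of the first identifier series and at 7.28 to 17.7 in the other normal lines. Its PanIN lines were close together, at 9.36 to 14.9 TPM, and its tumor lines spread from 4.16 to 21.7 TPM. The PanIN-minus-normal difference of S100a4 was 1.32 in the first series, 0.43 in the second and -0.63 in the third, so it had no one direction within series. The fibroblast marker rows summed to at most 5.7 TPM in any line.

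Pairs of members and known partners were then compared across the 19 lines after subtracting each group's mean, with permutation tests within groups and adjustment over 6 pairs. S100a8 and S100a9 went together, with r = 0.778, rho = 0.735 and a permutation p of 0.00079 (adjusted 0.00294). S100a8 was low in most lines, at 1 TPM or more in 4 of 7 normal, 2 of 6 PanIN and 1 of 6 tumor lines. Without normal lines 10 and 11, r was 0.596 (permutation p = 0.023). S100a14 and S100a16 gave r = 0.767 and rho = 0.733 (permutation p = 0.00098, adjusted 0.00294), and r was 0.649 (permutation p = 0.0125) without tumor lines 7 and 8.

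S100a4 and S100a6 gave r = 0.705 and rho = 0.744 (permutation p = 0.0019, adjusted 0.0038), with 0.614 (permutation p = 0.0209) without normal line 13 and tumor line 7. S100a10 and its partner gene Anxa2 gave r = 0.704 and rho = 0.596 (permutation p = 0.00397, adjusted 0.00595), and 0.588 (permutation p = 0.0248) without tumor line 5 and PanIN line 3. S100a11 and Anxa1 gave r = 0.148 (permutation p = 0.559), and S100a6 and S100a11 gave r = 0.173 (permutation p = 0.5). Centring by identifier series as well left r at 0.707, 0.731, 0.647 and 0.564 for the first 4 pairs named. The share of other gene pairs with an r as high is not given here, so these values are not shown to be particular to partners.

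**Figure D4:**
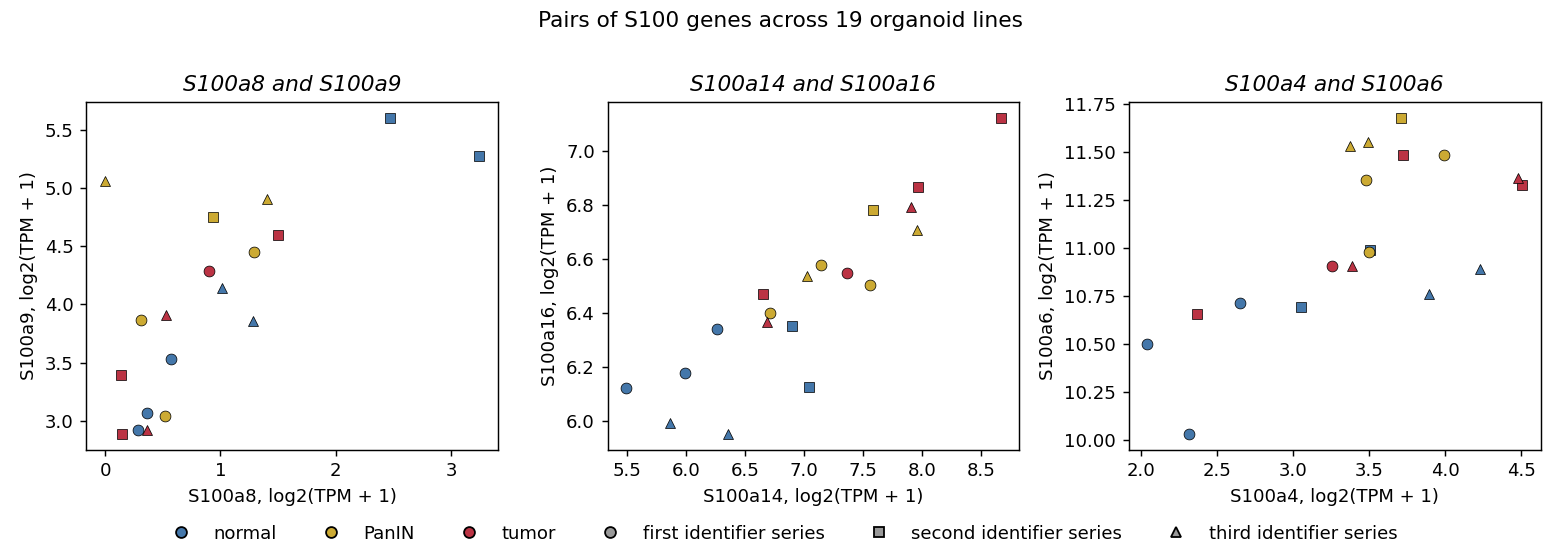
Log2(TPM + 1) of 3 pairs of S100 genes (S100a8 and S100a9, S100a14 and S100a16, S100a4 and S100a6) across the 19 lines, coloured by group and with marker shapes for the identifier series. S100a8 and S100a9 are highest together in normal lines 10 and 11, and S100a14 and S100a16 in tumor line 8.

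The genes whose pattern over the 19 lines was most like each changed member are given as a description, since lines of a group share their group's level. Symbols of predicted genes and of transcripts named only by a sequence identifier were left out, so closest means closest among the rest. S100a7a was closest to Bcar3 (Pearson r = 0.919), Procr (0.909) and Tmbim1 (0.904). S100a6 was also closest to Bcar3 (0.918), then Perp (0.896) and Arhgap40 (0.888). S100a13 was closest to Mpp1 (0.902), then Tgfa (0.889) and Gsta4 (0.886). S100a11 was closest to Sike1 (0.906), Mcc (0.887) and Pea15a (0.868). S100a16 followed Emp1 (0.908), Vars2 (0.906) and S100a14 (0.892), and S100a14 followed S100a16, Jag2 (0.884) and Emp1 (0.884).

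Of the 8 other S100 rows, 3 were tested, and S100a1 was at 72.9 ± 12.5 TPM in normal, 88.8 ± 11.8 in PanIN and 63 ± 15.8 in tumor lines. In tumor against PanIN, S100a1, which overlaps S100a13, was not called by limma (log2 change -0.51, adjusted p = 0.0656). The authors' deposited table of DESeq2 results has it as lower there (log2 fold change -0.549, adjusted p = 0.0214). S100pbp, a binding protein of S100P, was 1.42-fold lower in tumor than in normal lines (limma adjusted p = 0.00149). The partner genes of S100 proteins, 19 of 26 tested, had 5 higher and 0 lower in PanIN against normal, and 5 higher and 2 lower in tumor against normal. The shares of all genes to set beside these counts and those of the lists that follow are 3.1% higher and 3.68% lower in PanIN, and 17.8% higher and 14.4% lower in tumor lines. Fgf1, a growth factor released with S100A13, was at 1.59 ± 0.786 TPM in normal, 4.04 ± 1.07 in PanIN and 6.15 ± 1.6 in tumor lines (limma adjusted p = 0.0035 for PanIN and 8.61e-05 for tumor against normal). Mdm2, a p53 ubiquitin ligase that binds several S100 proteins, was 1.57-fold higher in PanIN than in normal lines (adjusted p = 0.00333) and 1.74-fold lower in tumor than in PanIN lines (adjusted p = 0.00352).

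Anxa2 was at 1594 ± 151, 1610 ± 176 and 1683 ± 262 TPM in normal, PanIN and tumor lines, where S100a6 was at 1641, 2790 and 2253 TPM. Among 12 annexins tested, 1 rose and 0 fell in PanIN, and 2 rose and 2 fell in tumor lines against normal, near the 17.8% and 14.4% of all genes. Anxa10 was 2.91-fold higher (limma adjusted p = 0.000943) and Anxa5 1.72-fold lower (adjusted p = 0.00454) in tumor lines. Of 7 tested receptors and sensors for secreted S100 proteins, 0 rose in either comparison with normal by limma, while 3 fell in tumor lines, where 14.4% of all genes did. These were Cd14 (2.23-fold lower, adjusted p = 0.000386), Alcam (1.71-fold, adjusted p = 0.00214) and Tlr4 (1.47-fold, adjusted p = 0.00279). Ager, the gene of RAGE, was not tested and was at most 1.18 TPM in any line.

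Among 21 tested genes for other EF-hand proteins, 0 rose and 1 fell in PanIN, and 3 rose and 3 fell in tumor lines against normal, shares near or below those of all genes (17.8% and 14.4%). Of 20 tested neighbours in the chromosome 3 cluster and its epidermal differentiation genes, 0 were called in PanIN and 1 rose and 7 fell in tumor lines against normal, beside 17.8% and 14.4% of all genes. Ivl, which encodes the cornified-envelope protein involucrin, was 3.91-fold lower in tumor than in normal lines (limma adjusted p = 0.0026), and Tuft1 was 1.51-fold lower (adjusted p = 0.0016).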

How the data were processed

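Trizol RNA, pooled over wells of a line, was depleted of ribosomal RNA and made into stranded libraries, per the labels' protocols. RSEM 1.2.11, Bowtie 1.1.0, DESeq2 1.4.1 and the mm9 build are named in the submitters' processing notes, and the annotation version was not given in the sources used here. TPM values per gene and line were deposited by the authors, beside their table of comparisons with a mean signal per gene, a log2 fold change, scores (its standard error and test statistic) and p-values. TPM keeps no depth, so no counting error could be given. The members and gene lists were chosen with earlier results of these data known. On the log2(TPM + 1) scale, limma 3.58.1 (R 4.3.3) was run with 1 mean per group over all 19 lines and an intensity trend, on 12500 rows at 1 TPM or more in at least 6 lines. Benjamini-Hochberg adjustment was made per comparison over all these rows, and an adjusted p below 0.05 was called. The method was tested on simulated data. Pair relations used 100000 permutations within groups, two-sided. All members were named, with up to 4 called genes per other list and the 3 most alike genes per changed member. Symbols of predicted genes and of transcripts named only by a sequence identifier were left out of the most alike genes. No 2 lines had identical values, and none was merged. The highest correlation of log2(TPM + 1) between 2 lines, with no group mean subtracted, was 0.9954. These values cannot show whether lines share a mouse. Alternatives changed the pseudocount, filter, scaling, covariates, replicate block, groups and lines; 1 was added after seeing the data. One item of the donors' genotype is not reported here.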

Additional observations from a re-analysis of the deposited data

Results flagged for a closer look

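In 33 groups of lines examined, 2 held a line far from its neighbours, where chance gives about 1 in 20. S100a7a in tumor line 9 was at 25.9 TPM and the next tumor line at 12 TPM, a gap of 0.628 of the group's range against a critical value of 0.625. S100a13 in normal line 6 was at 19.9 TPM and the next normal line at 27.8 TPM, a gap of 0.578 against 0.568. The effect of sex on each comparison was also tested for the members: 0 of 30 interactions passed an adjusted p below 0.05 with limma, 0 had an unadjusted p below 0.05, and the lowest adjusted p was 0.216.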

How the results depend on the processing

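Of 32 alternative settings, S100a7a, S100a6 and S100a13 in PanIN against normal and S100a7a in tumor against normal kept their calls in all. Leaving out 1 line gave 3 to 5 called members in PanIN against normal (3 without PanIN line 4 and without PanIN line 5), 5 to 6 in tumor against normal and 0 in tumor against PanIN. Over all genes it gave 495 (without PanIN line 5) to 894, 2652 (without tumor line 8) to 4856 and 51 (without tumor line 8) to 2833 (without PanIN line 6) calls. Tumor against PanIN also had 53 to 114 without normal line 13, PanIN line 1, 2, 3 or 4, or tumor line 5 or 9, and 393, 789 and 2397 without tumor line 7, normal line 11 and tumor line 4. Tumor against PanIN had 200 calls, and 93 with no filter, 130 with a filter of 5 TPM, 333 with quantile normalization, 103 with only these groups, 65 with the identifier series as covariate, and 3970 without PanIN line 6 and tumor line 4, chosen after seeing the data. PanIN against normal had 847 calls, and 535 with a filter of 5 TPM. Among calls, rises were 45.7% in PanIN against normal and 56.5% with median-of-ratios scaling, 55.1% in tumor against normal and 37.4% when rescaled, and 24.5% in tumor against PanIN and 68.9% without those lines.

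Small differences turned sign. S100a10 in PanIN against normal was 0.034 (median of ratios) and 0.016 (identifier covariate), with -0.036 to 0.032 on leaving out lines. S100a4 in tumor against PanIN was -0.027 (median of ratios), -0.040 (rescaled), -0.014 (quantile) and -0.12 (identifier covariate), with -0.15 to 0.28 on leaving out lines. S100a14 in tumor against PanIN was -0.030 with the identifier covariate, with -0.014 to 0.39 on leaving out lines. The relation of S100a11 and Anxa1 ran from -0.142 (without normal line 12) to 0.241. The cause was not tested.

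Lines of different groups were also correlated over all genes tested, after subtracting each gene's group mean from log2(TPM + 1). These are correlations of what is left within groups, not of the expression levels themselves. Same-numbered lines of different groups had such correlations of -0.307 to 0.247 (median 0.0707). Differently numbered lines of different groups had medians of 0.0596 within an identifier series and -0.0191 across series. Of 6 PanIN and tumor lines with a shared number, 3 correlated best with their own number. With 3 shared numbers, this check cannot tell whether the numbers pair the lines. With a replicate block, which leaves fewer residual degrees of freedom, calls were 258, 225 and 8 over all genes, and 1 member was called in tumor against normal. Normal lines 10, 11, 12 and 13, PanIN lines 1 and 2 and tumor lines 8 and 9 have a number found in no other group. Under the block these lines do not enter the group differences, which therefore rest on few lines. Under the block S100a10 was 0.059 and S100a8 0.42 in PanIN against normal. In tumor against normal S100a8 was 0.25 and S100a9 0.97. In tumor against PanIN S100a4 was -0.41, S100a14 -0.47 and S100a16 -0.10.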
